A study of Mus musculus with 12 samples.

Results

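The response of brain macrophages to lipopolysaccharide (LPS), a bacterial cell wall component, was compared between mice whose heads were shielded during irradiation and mice that were not shielded. The comparison covers all 12 libraries and 18875 of the 36491 genes in the deposited table, those with enough counts to test. For each gene the LPS effect in unshielded mice (LPS against no LPS) had the LPS effect in shielded mice subtracted from it, on the log2 scale. A positive difference means that the gene responded more upwards, or less downwards, without the shield.

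All mice were wild-type C57BL/6J, 6 months old by the labels, and all received a bone marrow transplant (BMT). Their food then held PLX5622, which blocks the CSF1 receptor and so removes microglia, for 2 weeks, and 6 weeks on standard chow followed. Each mouse got an intraperitoneal dose of 50 µg LPS or saline, and brain cells sorted as microglia were collected 6 hours later. The 4 groups had 3 libraries each: shielded with LPS, shielded without LPS, unshielded with LPS and unshielded without LPS. Groups follow the library titles. The treatment field of 2 libraries titled as shielded without LPS (libraries 2 and 3) says LPS, so each lead count is also given without them. The 16 acute-phase and antimicrobial genes, which LPS induces, averaged 1.43 and 1.45 log2 CPM (counts scaled to library size) in these 2 libraries. The same genes averaged 2.1 in shielded library 1 without LPS and 5.32 to 5.74 in the shielded LPS libraries. No label says whether a library is 1 mouse or several, and the p-values reflect only how far these libraries spread, which may be in part technical. The share of transplanted cells in each sort is not measured here, and in these bulk libraries a change in the mix of cells and a change within cells cannot be told apart.

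Microglia are the resident macrophages of the brain, and they arise before birth. When they are depleted and the irradiated brain lets marrow-derived cells in, those cells can fill the empty space and take on much, though not all, of the microglial expression programme. LPS is sensed by Toll-like receptor 4 with its partners CD14 and MD-2. One branch of the signal, through NF-kB, induces cytokines and chemokines, and another, through interferon regulatory factors, induces interferon-stimulated genes. Activated macrophages also raise glycolysis, protein synthesis capacity and iron uptake, and lower many genes of their resting state.

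Library totals ran from 18090977 to 60495968 counts, with the unshielded LPS libraries the deepest. Microglia identity genes averaged 8.27 to 10.2 log2 CPM (counts scaled to library size) over the 12 libraries, and no library had one of the 29 at 0 counts. Neuronal and oligodendrocyte genes, which a sort of macrophages should lack, were present in every library and differed between groups. The 9 neuronal genes summed to 33.4, 62.5 and 165.9 CPM in the shielded LPS libraries, 117.9 to 222.2 CPM in the unshielded LPS libraries and 187.7 to 346.0 CPM without LPS. The 8 oligodendrocyte genes summed to 424.5, 922.5 and 1320.0 CPM in the shielded LPS libraries, 1055.0 to 1894.0 CPM in the unshielded LPS libraries and 1769.0 to 2805.0 CPM without LPS. None of these 17 genes was at 0 counts in any library, and shielded LPS library 3 stood nearest to the other groups. None passed the test of the difference, where their medians were 0.85 and 0.86, but without shielded LPS library 3 6 of the 9 neuronal genes and 1 of the 8 oligodendrocyte genes were called higher. Counts are also given with the level of these genes as a covariate.

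LPS effects differed by shield at 2512 of the 18875 genes tested, or 13.3% (edgeR quasi-likelihood test, Benjamini-Hochberg adjusted p under 0.05). The difference was negative at 1745 genes (9.25%) and positive at 767 (4.06%), and the median over all genes was 0.08. Of the negative differences 278 were at least 2-fold (1.47% of genes tested), and of the positive ones 357 (1.89%). Each called gene was put in a class by the LPS effects called in the same fit. The response was blunted at 1209 genes (called in both, in 1 direction, smaller without the shield) and lost at 909 (called in shielded mice only). It was reversed at 91, larger without the shield at 76 and gained at 220 (called in unshielded mice only), and 7 genes had neither effect called. A p over the threshold does not show that an effect is absent: of the 909 lost responses 356 had the opposite sign in unshielded mice and the other genes kept their sign.

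Of the called genes 927 share an exon with another annotated gene, and whether the counting used strand is not given in the sources used here. Among genes named here this holds for Bhlhe41, Cbfa2t3, Ch25h, Csf1r, Cx3cr1, Cxcl10, Cyp51, Emb, Erap1, Farsb, Fgf2, Fn1, Gbp2, Gpr65, Hk1, Ikbke, Il1b, Imp4, Irak3, Ms4a6b, Ms4a6c, Nol11, Nop58, P2ry12, Pltp, Scd2, Sgsh, Snx21, St6gal1, Stard13, Tgfb3, Tgtp1, Ticam2, Tle1 and Tnfaip2, whose reads could belong in part to the other gene.

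These counts depend strongly on a few libraries. Without the 2 libraries whose fields conflict, which leaves 1 shielded library without LPS that is assumed to vary like the other groups, 148 genes were called, 83 positive and 65 negative, and 145 of them were among the 2512 with the same sign. All 2512 differences kept their sign in that fit, though the genes had been picked on fits that held these same libraries. Without shielded LPS library 3 the test called 6391 genes, 2951 positive and 3440 negative. Leaving out shielded library 3 without LPS gave 1615 and leaving out unshielded library 2 without LPS gave 1635, and the other 9 libraries left out in turn gave 1694 to 2867. With the mean level of the neuronal and oligodendrocyte genes added as a covariate 1884 genes were called, 1135 of them negative, and the median difference over all genes was 0.000159. Grouping the 2 libraries by their treatment field gave 0 calls (481 genes at an unadjusted p under 0.05).

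**Figure D1:**
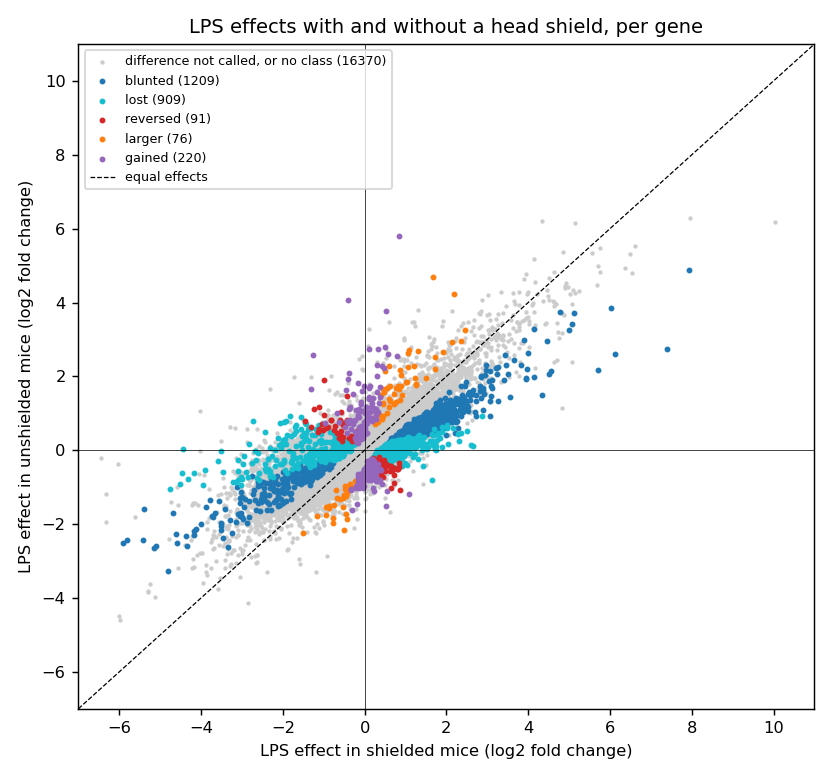
Each point is a tested gene, with its LPS effect in shielded mice (log2 fold change) on the x axis and that in unshielded mice on the y axis, coloured by the class of its response. Blunted genes lie between the dashed line of equal effects and the x axis, lost genes lie near the x axis, the 91 reversed genes lie in the upper left and lower right fields, and grey points did not pass the test of the difference or had no class.

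Genes that LPS raised in shielded mice were blunted or lost in a larger share than genes that it lowered. Without the 2 libraries with conflicting fields, where more calls were positive than negative, the split by direction of the LPS effect was not computed. LPS raised 6119 genes (32.4%) and lowered 6619 (35.1%) in shielded mice (67.5% in all), and raised 4585 (24.3%) and lowered 3543 (18.8%) in unshielded mice (43.1% in all). Unshielded mice stood above shielded ones at 751 genes (3.98%) and below at 1292 (6.85%) without LPS, and at 3596 (19.1%) and 4827 (25.6%) after LPS. Of the 6119 raised genes 951 were blunted (15.5%) and 598 lost (9.77%), and of the 6619 lowered genes 258 were blunted (3.90%) and 311 lost (4.70%). The raised genes that were blunted had a median LPS effect of 1.30 in shielded and 0.60 in unshielded mice. Their median difference between unshielded and shielded mice was -0.08 without LPS and -0.76 after LPS, so the groups lay apart mainly after the injection. The lowered genes that were blunted had medians of -1.76 and -0.81. The shielded libraries enter both the class and the difference, so these medians are a description. Among genes with a mean of at least 3 log2 CPM, 22.8% were called, 17.1% negative and 5.65% positive. At that level LPS raised 5062 genes in shielded mice, of which 911 were blunted and 533 lost. It lowered 2238, of which 190 were blunted and 193 lost, so the shares of raised and lowered genes lay closer together than over all genes.

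**Figure D2:**
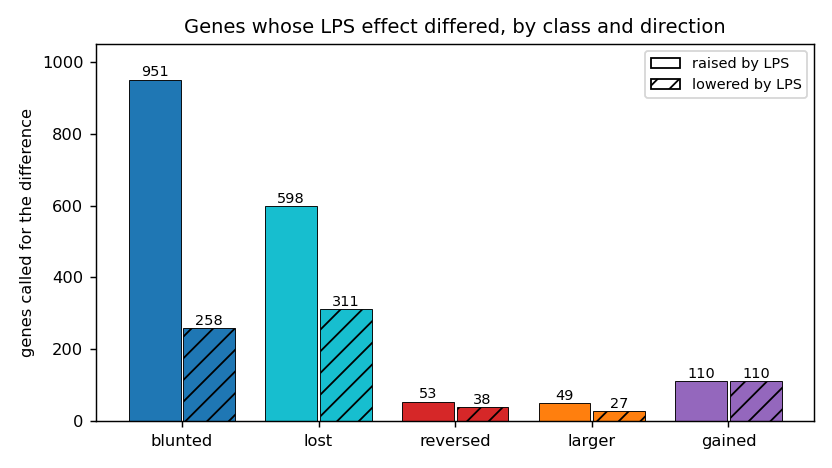
Bars give the number of genes called for the difference in each class, split by the direction of the LPS effect (in shielded mice, or in unshielded mice for gained genes). The largest bar is that of the 951 raised genes with a blunted response, and gained genes are split evenly, 110 and 110.

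Among genes with a mean of at least 3 log2 CPM, the share blunted or lost varied with the size of the response in shielded mice, and not alike for raised and lowered genes. For raised genes it was 19% of 3422 genes raised less than 2-fold, 51.5% of 1315 raised 2- to 4-fold, 40.6% of 229 raised 4- to 8-fold and 25.0% of 96 raised over 8-fold. For lowered genes it was 12.8% of 1303, 21.1% of 772, 28% of 143 and 65.0% of 20 in the same order of size, so over 8-fold the share was larger for lowered genes. In the 96 genes raised over 8-fold the median effect was 3.71 in shielded and 3.13 in unshielded mice.

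Of the 96 genes raised over 8-fold 72 were not called, and a few inflammatory genes had large differences. Il12b, the subunit shared by interleukins 12 and 23, had the largest difference of the blunted genes with a mean of at least 3 log2 CPM, predicted and unnamed genes left aside. Il12b stood at 3.02, 1.32 and 1.08 CPM in the shielded libraries without LPS and at 229.9, 68.5 and 87.7 CPM with LPS, against 3.17, 2.75 and 2.88 CPM and 11.1, 28.1 and 15.1 CPM in the unshielded libraries. The 3 shielded LPS libraries lay above the 3 unshielded ones, and the libraries without LPS were all near 1 to 3 CPM. The log2 LPS effect was 6.13 ± 0.61 in shielded and 2.62 ± 0.55 in unshielded mice, a difference of -3.51 ± 0.78 (SE; edgeR adjusted p = 0.0151). Ch25h makes 25-hydroxycholesterol, an oxysterol with antiviral action. In shielded mice the level of Ch25h was 4.78, 3.33 and 3.06 CPM without LPS and 104, 72.8 and 49.0 CPM after it, and in unshielded mice 10.1, 6.31 and 8.47 CPM and 17.6, 24.8 and 28.7 CPM. Its LPS effect was 4.33 ± 0.33 in shielded and 1.5 ± 0.29 in unshielded mice, and the difference was -2.83 ± 0.42 (edgeR adjusted p = 0.00283). Ikbke, a kinase that activates interferon regulatory factors, rose by 6.02 ± 0.36 and 3.84 ± 0.32 (difference -2.18 ± 0.45, edgeR adjusted p = 0.0113). Its call was lost with the neuronal and oligodendrocyte covariate. Of these 3 genes none kept its call without the libraries with conflicting fields.

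The monocyte attractant Ccl12 stood at 1439, 725 and 800.5 CPM in the shielded LPS libraries and at 232, 238 and 268 CPM in the unshielded LPS libraries, from 79.4, 57.8 and 56.2 CPM and 70.5, 64.7 and 58.3 CPM without LPS. The groups did not overlap after LPS and overlapped without it, and the difference was -2.0 ± 0.32 (edgeR adjusted p = 0.00322). Fn1 encodes fibronectin, a protein of the extracellular matrix. The libraries held 42.6, 74.7 and 52.1 CPM of Fn1 (shielded, no LPS), 501, 464 and 446 CPM (shielded, LPS), 54.6, 70.5 and 74.5 CPM (unshielded, no LPS) and 135, 146 and 98.5 CPM (unshielded, LPS). Its difference of -2.13 ± 0.29 (edgeR adjusted p = 0.00195) was also called without the libraries with conflicting fields. Tnf, a leading cytokine of macrophages, rose by 2.42 ± 0.27 and 1.10 ± 0.26 (difference -1.33 ± 0.36, edgeR adjusted p = 0.0351). That call was lost in 8 of the 12 fits with 1 library left out, with adjusted p up to 0.087: those without shielded LPS library 1 or 2, shielded library 1 or 3 without LPS, unshielded LPS library 1 or 3, and unshielded library 1 or 2 without LPS.

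Over the gene lists of the inflammatory response few members were called, and the shares lay near or below those of all genes (9.25% called lower) or of genes with a mean of at least 3 log2 CPM (17.1%). At that mean level, genes raised 2- to 4-fold, 4- to 8-fold and over 8-fold in shielded mice were blunted or lost at 51.5%, 40.6% and 25.0%. Of 26 cytokine and chemokine genes 4 were called lower and none higher (Il12b, Tnf, Ccl12 and the B-cell attractant Cxcl13), with median LPS effects of 2.17 in shielded and 1.34 in unshielded mice. Without shielded LPS library 3 that count was 9, and without the libraries with conflicting fields it was 0. Cxcl13 lost its call without shielded library 2 or 3 without LPS or unshielded library 1 without LPS (adjusted p up to 0.145). Of 24 NF-kB targets 2 were called lower, Ikbke and Tnfaip2, with medians of 2.00 and 1.59. Of 16 acute-phase and antimicrobial genes 2 were called lower, with medians of 4.28 and 3.89, and of 15 guanylate-binding and immunity-related GTPases 1 was, with medians of 2.10 and 1.70. None of 30 interferon-response genes was called, and their medians were 2.53 and 2.22. Called or not, the LPS effect was smaller in size in unshielded mice at 22 of the 26 cytokine and chemokine genes and 18 of the 24 NF-kB targets. The same held at 9 of the 16 acute-phase genes, 11 of the 15 GTPases and 21 of the 30 interferon-response genes. That count over all genes was not made. Without shielded LPS library 3 the counts called lower were 7 NF-kB targets, 3 acute-phase genes with 1 higher, 5 GTPases and 2 interferon-response genes, and without the libraries with conflicting fields all were 0.

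Single induced genes had wide errors where they were not called. Isg15, a ubiquitin-like interferon-stimulated protein, had a difference of -0.34 ± 0.39 (edgeR adjusted p = 0.574), and it was 0.19 without the libraries with conflicting fields. The chemokine Ccl5 had -1.07 ± 0.67 (adjusted p = 0.307) and Il1b, the gene of interleukin 1 beta, -0.91 ± 0.38 (adjusted p = 0.14). The acute-phase gene Saa3 had -3.84 ± 1.51 (adjusted p = 0.12). Unshielded library 3 without LPS held 29.5 CPM of Saa3 against 0.707 and 1.11 CPM in its companions. Without that library the difference of Saa3 was -0.25 (adjusted p = 0.818) and that of Ccl5 -0.007 (adjusted p = 0.994), while leaving out unshielded library 1 without LPS gave -4.46 for Saa3 (adjusted p = 0.0437). Cxcl10 (-1.23 ± 0.42, adjusted p = 0.0779) and Il1rn (-1.42 ± 0.51, adjusted p = 0.0941) were called without shielded LPS library 3, with adjusted p of 0.0319 and 0.0378. The aconitate decarboxylase gene Acod1 had -1.74 ± 0.68, the nitric oxide synthase gene Nos2 -1.22 ± 0.88, the GTPase gene Gbp2 -0.60 ± 0.41, Il6 0.20 ± 0.38, the anti-inflammatory cytokine gene Il10 0.57 ± 0.52 and the siderophore binder Lcn2 0.00 ± 0.90, none of them called. A p over the threshold does not show that these genes responded alike.

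Receptors for bacterial products differed among themselves. Tlr2, the receptor for bacterial lipoproteins, stood at 317, 272 and 258 CPM in shielded libraries without LPS and at 2891, 2422 and 1787 CPM after LPS. In the unshielded libraries it stood at 446, 363 and 339.5 CPM and 722, 1103 and 1065 CPM. The LPS groups did not overlap, and the difference was -1.74 ± 0.28 (edgeR adjusted p = 0.0029). Tlr1, which pairs with Tlr2, was among the lost responses. In shielded mice the level of Tlr1 was 63.2, 59.4 and 56.9 CPM without LPS and 254, 182 and 163 CPM after it, and in unshielded mice 81.9, 74.9 and 72.2 CPM and 78.0, 89.5 and 78.9 CPM. The LPS effect of Tlr1 was 1.74 ± 0.14 in shielded and 0.11 ± 0.14 in unshielded mice (difference -1.64 ± 0.20, edgeR adjusted p = 0.000913), and this call held without the libraries with conflicting fields. Tlr4, the LPS receptor, had LPS effects of -0.30 ± 0.09 and -0.39 ± 0.09 and a difference of -0.09 ± 0.13 (adjusted p = 0.655). Of 17 LPS receptor and adaptor genes 3 were called lower, near the 17.1% of genes with a mean of at least 3 log2 CPM: Tlr2, Irak3, which restrains signalling from Toll-like receptors (-1.21 ± 0.18), and the adaptor Ticam2, which rose in shielded and fell in unshielded mice (0.39 ± 0.16 and -0.66 ± 0.16). Leaving out shielded LPS library 3 raised that count to 6, and leaving out the libraries with conflicting fields lowered it to 0.

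Among the lost increases, Tfrc, the transferrin receptor through which cells take up iron, had the largest difference of the genes named by rule. Tfrc stood at 31.5, 33.6 and 35.1 CPM in the shielded libraries without LPS and at 257, 199 and 176 CPM with LPS, against 27.0, 30.1 and 27.2 CPM and 36.5, 30.1 and 24.5 CPM in the unshielded libraries. Only the 3 shielded LPS libraries stood high, and the other 9 libraries lay between 24.5 and 36.5 CPM. The LPS effect was 2.66 ± 0.16 in shielded and 0.11 ± 0.15 in unshielded mice, where the second did not pass the test (edgeR adjusted p = 0.557), and the difference was -2.54 ± 0.22 (edgeR adjusted p = 0.000464). In the iron list 4 of 13 tested genes were called lower and none higher (9.25% of all genes were lower, 17.1% at a mean of at least 3 log2 CPM): Tfrc, the metal importer Slc39a14 (-1.5 ± 0.25), the endosomal ferrireductase Steap3 (-0.91 ± 0.22) and Ncoa4, the receptor that sends ferritin to lysosomes (-0.59 ± 0.11). Leaving out shielded library 2 without LPS ended the call of Steap3 (adjusted p = 0.0508), and without the libraries with conflicting fields 1 of the 13 genes was called. Ncoa4 fell in both groups of mice, and by more in unshielded mice.

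Gpr65, a receptor that senses acid outside the cell, had its groups without LPS far apart. In shielded mice the level of Gpr65 was 67.9, 33.1 and 39.6 CPM without LPS and 293, 306 and 262 CPM after it, and in unshielded mice 204, 156 and 169 CPM and 186, 207 and 194 CPM. After LPS the shielded libraries lay above the unshielded ones, and without LPS they lay below. The LPS effect was 2.61 ± 0.22 in shielded and 0.15 ± 0.21 in unshielded mice (difference -2.46 ± 0.30, edgeR adjusted p = 0.00135). Rab32, a small GTPase of lysosome-related organelles, rose from 82.5, 66.7 and 65.4 to 297, 212 and 215 CPM in shielded mice. In unshielded mice it stood at 115, 91.2 and 98.9 CPM without LPS and at 105, 108 and 94.9 CPM after it (difference -1.74 ± 0.20, edgeR adjusted p = 0.000833). Tfrc, Gpr65 and Rab32 kept their calls without the libraries with conflicting fields. Nr3c1, the glucocorticoid receptor, rose by 0.85 ± 0.11 in shielded mice and had -0.19 ± 0.11 in unshielded mice (difference -1.04 ± 0.16, edgeR adjusted p = 0.00262). Its target Tsc22d3, which encodes GILZ, went the other way: it rose in both, by 2.36 ± 0.10 and 2.97 ± 0.10 (difference 0.61 ± 0.13, adjusted p = 0.0111). Neither call held without the libraries with conflicting fields.

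Of the decreases, St6gal1, which adds sialic acid to glycoproteins, had the smallest p of the lost decreases named by rule. St6gal1 stood at 108, 108 and 106 CPM in the shielded libraries without LPS and at 11.4, 17.4 and 18.9 CPM with LPS, against 137, 118 and 123.1 CPM and 99.2, 112 and 86.7 CPM in the unshielded libraries. The shielded LPS libraries stood apart below the other 9, and the difference was 2.42 ± 0.22 (edgeR adjusted p = 0.000464). Apoe, which encodes a lipid carrier, made up 2.55, 0.700 and 1.33% of all counts in the shielded libraries without LPS and 0.239, 0.206 and 0.399% after LPS. In the unshielded libraries it made up 9.41, 6.58 and 8.41% without LPS and 7.60, 8.75 and 8.75% after it, with no separation between the groups. Its LPS effect was -2.11 ± 0.40 in shielded and 0.34 ± 0.38 in unshielded mice (difference 2.45 ± 0.55, edgeR adjusted p = 0.0152). The call was lost with the neuronal and oligodendrocyte covariate and with no low-count filter. Abcg1 exports cholesterol from cells. The libraries held 152, 162 and 149 CPM of Abcg1 (shielded, no LPS), 43.9, 52.6 and 51.1 CPM (shielded, LPS), 188, 157 and 168 CPM (unshielded, no LPS) and 133, 126 and 121 CPM (unshielded, LPS). It fell by 1.65 on the log2 scale in shielded and by 0.43 in unshielded mice (difference 1.22 ± 0.13, edgeR adjusted p = 0.000764). Of 10 cholesterol efflux and LXR genes 3 were called higher, Apoe, Abcg1 and the phospholipid transfer protein gene Pltp (1.15 ± 0.18), and none lower, where 4.06% of all genes were called higher and 5.65% at a mean of at least 3 log2 CPM. Pltp was not called without the libraries with conflicting fields.

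Sgsh, a lysosomal enzyme that breaks down heparan sulphate, stood at 43.9, 36.9 and 37.5 CPM without LPS and 3.56, 4.55 and 6.53 CPM with LPS in shielded mice, and at 98.1, 79.1 and 82.1 CPM and 43.0, 44.0 and 31.7 CPM in unshielded mice. Its effect was -3.01 ± 0.20 in shielded and -1.13 ± 0.18 in unshielded mice (difference 1.89 ± 0.27, edgeR adjusted p = 0.00212). Cbfa2t3, a transcriptional corepressor (1.98 ± 0.33), and the transporter gene Slco1a4 (2.06 ± 0.47) were also blunted, and Stard13 lost its decrease (2.15 ± 0.32). Slco1a4 is on the list of endothelial markers, 9 genes whose summed level was 153.7 to 187.3 CPM in shielded and 140.2 to 219.5 CPM in unshielded LPS libraries, and 221.2 to 352.2 CPM and 305.3 to 338.5 CPM without LPS. It was the 1 gene of the 9 called for the difference, and the median difference of the 9 was -0.14. None of the 9 was at 0 counts in any library, and the part of these cells in the result was not tested. Slco1a4 was not called with the covariate, and neither it nor Cbfa2t3 was called without the libraries with conflicting fields. Tppp, known from oligodendrocytes (1.90 ± 0.48), and the fatty acid desaturase gene Scd2 (1.81 ± 0.49) were called less firmly. Tppp lost its call in 8 of 12 fits with 1 library left out (adjusted p up to 0.0678); it held without shielded LPS library 3, shielded library 1 without LPS, unshielded LPS library 2 and unshielded library 2 without LPS. Scd2 lost its call in 10 of 12 (adjusted p up to 0.0845) and held without shielded LPS library 1 or 3. The oligodendrocyte genes fell in the same libraries, and their part in these 2 results was not tested beyond the covariate, with which Tppp was not called and Scd2 was.

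Among reversed responses, C3ar1, the receptor for complement fragment C3a, rose in shielded and fell in unshielded mice. C3ar1 stood at 247, 245 and 207 CPM in the shielded libraries without LPS and at 483, 404 and 387 CPM with LPS, against 358, 328 and 303 CPM and 176, 152 and 144 CPM in the unshielded libraries. The 4 groups did not overlap, and their order was unshielded LPS, shielded without LPS, unshielded without LPS and shielded LPS from low to high. The effects were 0.87 ± 0.12 in shielded and -1.07 ± 0.12 in unshielded mice (difference -1.93 ± 0.17, edgeR adjusted p = 0.000464). Mrc1, the mannose receptor of border and tissue macrophages, went the opposite way. In shielded mice the level of Mrc1 was 254, 225 and 194 CPM without LPS and 133, 156 and 214 CPM after it, and in unshielded mice 746, 619 and 640.3 CPM and 1603, 1972 and 2021 CPM. Its effects were -0.42 ± 0.17 in shielded and 1.48 ± 0.17 in unshielded mice (difference 1.90 ± 0.24, edgeR adjusted p = 0.00129). The decrease in shielded mice was small against the spread, as shielded LPS library 3 overlapped the libraries without LPS.

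Other genes that rose with the shield and fell without it were the growth factor gene Fgf2 (0.65 ± 0.22 and -1.02 ± 0.21), the zinc importer gene Slc39a10 (0.82 ± 0.13 and -0.51 ± 0.13) and the amino acid transporter gene Slc16a10 (0.79 ± 0.14 and -0.51 ± 0.14). Those that fell with the shield and rose without it were Serinc5, known as a restriction factor of retroviruses (-1.31 ± 0.19 and 0.64 ± 0.18), the sorting nexin gene Snx21 (-1.12 ± 0.16 and 0.56 ± 0.15) and Arap2, a regulator of small GTPases (-0.83 ± 0.23 and 0.81 ± 0.23). For the 6 differences the edgeR adjusted p-values lay between 0.00166 and 0.0082. C3ar1, Mrc1, Fgf2, Slc39a10, Serinc5 and Snx21 kept their calls without the libraries with conflicting fields.

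Antigen presentation by MHC class II, which displays peptides to CD4 T cells, also reversed at its main chains. H2-Aa, which encodes an alpha chain, stood at 238, 238 and 232 CPM without LPS and 165, 100.5 and 102 CPM with LPS in shielded mice, and at 496, 384 and 385 CPM and 506, 734 and 675 CPM in unshielded mice. All 3 shielded LPS libraries lay below the shielded libraries without LPS, and the unshielded LPS libraries lay above those without. H2-Aa, H2-Ab1 and H2-Eb1 had LPS effects of -0.95 ± 0.19, -0.72 ± 0.19 and -1.01 ± 0.18 in shielded mice and 0.60 ± 0.19, 0.65 ± 0.19 and 0.56 ± 0.18 in unshielded mice. The differences were 1.55 ± 0.27, 1.36 ± 0.27 and 1.57 ± 0.26 (edgeR adjusted p = 0.00446, 0.00802 and 0.00314). Without LPS 6 of 10 MHC class II genes were already called higher in unshielded mice and 2 lower (median 0.65). Over all genes 4.06% were called higher for the difference, and 5.65% at a mean of at least 3 log2 CPM. Of the 10 MHC class II genes 5 were called higher for the difference and none lower, and the median LPS effects were -0.68 and 0.07. None was called when the libraries with conflicting fields were left out, where the median difference was 0.60.

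**Figure D3:**
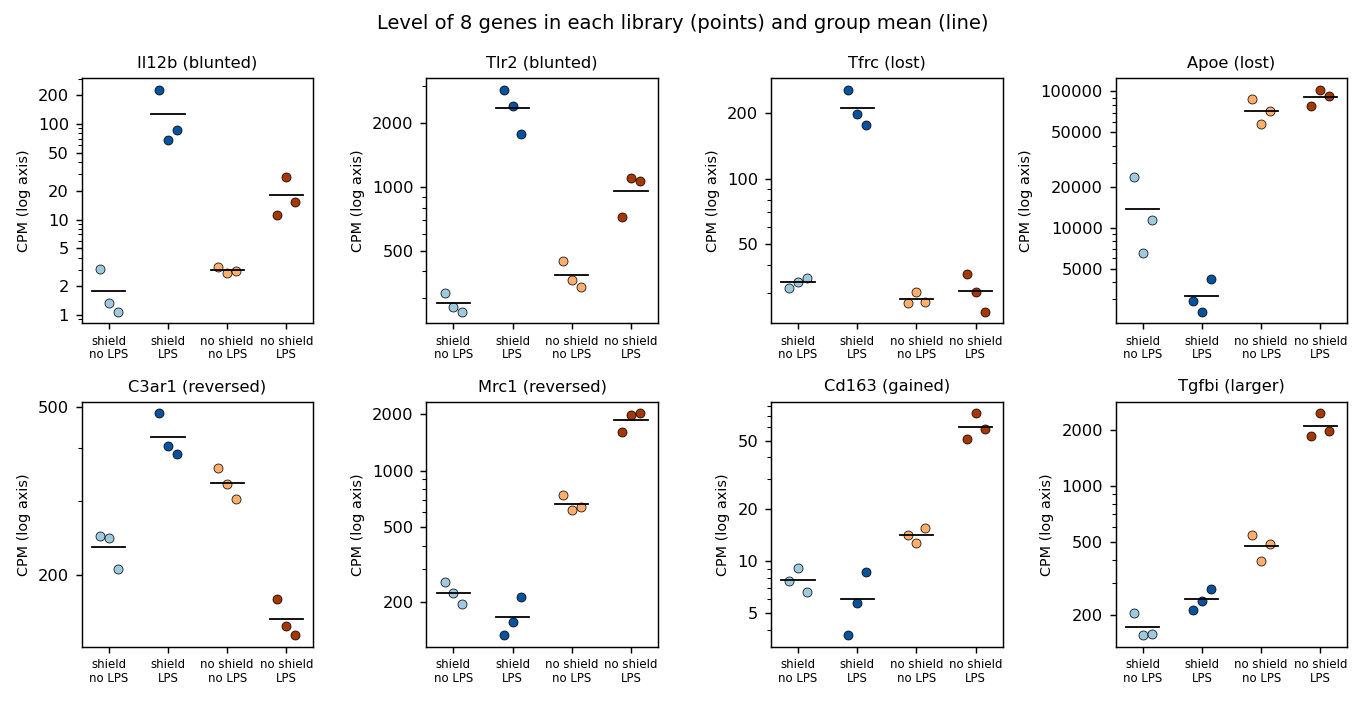
CPM on a log axis of 8 genes in each of the 12 libraries (points), with the mean of each group as a line and the class of the response in brackets. Tfrc is high in the shielded LPS libraries only, and Cd163 and Tgfbi are highest in the 3 unshielded LPS libraries.

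Gained increases were led by Pde7b, Cd163, Runx3 and Rap1gap2. Cd163 is the haemoglobin scavenger receptor of border and perivascular macrophages. Cd163 stood at 7.69, 9.18 and 6.59 CPM in the shielded libraries without LPS and at 3.71, 5.74 and 8.61 CPM with LPS, against 14.2, 12.8 and 15.6 CPM and 50.9, 72.2 and 58.1 CPM in the unshielded libraries. The unshielded LPS libraries stood above the other 9, while the shielded groups overlapped. Its effects were -0.37 ± 0.25 in shielded and 2.09 ± 0.24 in unshielded mice (difference 2.46 ± 0.35, edgeR adjusted p = 0.00239). Pde7b degrades cyclic AMP. In shielded mice the level of Pde7b was 5.04, 2.65 and 4.66 CPM without LPS and 3.13, 3.21 and 7.04 CPM after it, and in unshielded mice 11.7, 9.10 and 12.4 CPM and 59.4, 88.0 and 76.2 CPM. Its shielded groups overlapped as well, and the difference was 2.64 ± 0.45 (edgeR adjusted p = 0.00468). Runx3, a transcription factor of blood lineages (2.30 ± 0.41), and Rap1gap2, which switches off the small GTPase Rap1 (2.01 ± 0.21), were also highest in the unshielded LPS libraries, and all 4 calls held without the libraries with conflicting fields.

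Gained decreases were smaller. Gpr183, an oxysterol receptor that guides immune cells, had LPS effects of 0.23 ± 0.15 in shielded and -1.09 ± 0.16 in unshielded mice (difference -1.32 ± 0.22). The glycosyltransferase gene Galnt3 (-1.29 ± 0.22), the kinase gene Nuak1 (-1.28 ± 0.23) and Bhlhe41, a repressor in tissue macrophages and the clock (-1.21 ± 0.25), followed it. EdgeR adjusted p-values of the 4 were at most 0.00889, and none held without the libraries with conflicting fields.

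Larger responses without the shield were few. Tgfbi, a matrix protein induced by TGF-beta, stood at 206, 156 and 158 CPM without LPS and 213, 240.5 and 279 CPM with LPS in shielded mice, and at 545, 392 and 486 CPM and 1843, 2454 and 1966 CPM in unshielded mice. Its effects were 0.49 ± 0.16 in shielded and 2.14 ± 0.17 in unshielded mice (difference 1.64 ± 0.23, edgeR adjusted p = 0.00195). Clec4n, the fungal receptor dectin-2, rose by 1.06 ± 0.19 and 2.63 ± 0.18, the p53 target Trp53inp1 by 0.59 ± 0.24 and 2.29 ± 0.24, and Emb, a chaperone of lactate transporters, by 0.87 ± 0.18 and 2.18 ± 0.18. Cx3cr1, the fractalkine receptor of microglia, fell in both. The libraries held 3890.0, 4498 and 3654 CPM of Cx3cr1 (shielded, no LPS), 2754, 2035 and 2249 CPM (shielded, LPS), 2680.0, 2966 and 2410.0 CPM (unshielded, no LPS) and 899, 604 and 546 CPM (unshielded, LPS). The difference was -1.20 ± 0.25 (edgeR adjusted p = 0.0101). The corepressor gene Tle1 (-1.65 ± 0.22), Clec7a, the receptor dectin-1 (-1.42 ± 0.24), and Kitl, the ligand of KIT (-1.26 ± 0.26), also fell more without the shield. Without the libraries with conflicting fields Tgfbi, Clec4n and Tle1 kept their calls, and Cx3cr1, Clec7a, Kitl, Emb and Trp53inp1 did not.

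Counts over the marker lists stand against 13.3% of all genes called (4.06% higher, 9.25% lower) and 22.8% of genes with a mean of at least 3 log2 CPM (5.65% and 17.1%). Of 29 microglia identity genes 2 were called higher (Gpr34 and Mertk) and 1 lower (Cx3cr1), and the medians of the LPS effect were -0.44 and -0.33. Gpr34 lost its call in 9 of 12 fits with 1 library left out (adjusted p up to 0.0927); it held without shielded LPS library 3 and unshielded LPS library 2, and without unshielded library 2 without LPS. Gpr34 was also not called with either replicate block (adjusted p = 0.0593 across the groups and 0.0549 within shield status), with library totals, the covariate or no low-count filter. Tmem119 and P2ry12, both microglial, had differences of 0.53 ± 0.17 and 0.76 ± 0.26 (edgeR adjusted p = 0.057 and 0.0715), and both were called by DESeq2 (adjusted p = 0.032 and 0.0371). The transcription factor gene Sall1 had -0.26 ± 0.54, the CSF1 receptor gene Csf1r -0.07 ± 0.17, the C-type lectin gene Clec12a 0.37 ± 0.61 and Gpnmb, raised in disease-associated microglia, 0.73 ± 0.35, none of them called. Of 28 marrow-derived macrophage genes 8 were called higher and 4 lower, with medians of -0.06 and 0.42. Those genes were already higher in unshielded mice without LPS (median 1.54). Of 12 border-associated macrophage genes 4 were called higher (Mrc1, Cd163, Pf4 and Clec10a) and none lower. Pf4 lost its call in 7 of 12 fits with 1 library left out (adjusted p up to 0.0712), with the covariate and with the block within shield status; it held without shielded LPS library 1 or 3, shielded library 2 without LPS, unshielded LPS library 1 and unshielded library 1 without LPS. Without shielded LPS library 3 these counts were 14 and 4 of 28 and 7 of 12, and without the libraries with conflicting fields 6 and 0 of 28 and 2 of 12. The microglia counts were then 1 higher and 2 lower without shielded LPS library 3 and 0 without the libraries with conflicting fields. With the covariate 4 marrow-derived macrophage genes were higher and 2 lower. The 12 neutrophil genes had a median difference of 1.42 and none was called, though 2 were called higher without shielded LPS library 3. Among the marrow-derived macrophage genes, Lyz2 (lysozyme) had 1.39 ± 0.38, the receptor tyrosine kinase gene Axl 0.97 ± 0.26 and the lipase gene Lpl -0.64 ± 0.16, while the MS4A family genes Ms4a6b (-0.91 ± 0.18) and Ms4a6c (-1.01 ± 0.28) were blunted. With 1 library left out Lyz2 and Axl each lost their call in 6 of 12 fits (adjusted p up to 0.0786 and 0.0844), Ms4a6c in 8 (up to 0.0703) and Lpl in 2 (up to 0.0558). The call of Lyz2 was lost without LPS library 1 or 2 of the shielded mice, LPS library 2 or 3 of the unshielded mice or unshielded library 2 or 3 without LPS, and that of Axl without shielded LPS library 2, shielded library 1 without LPS or the same 4 unshielded libraries. Ms4a6c held its call only without shielded LPS library 3, shielded library 1 without LPS, unshielded LPS library 2 or unshielded library 2 without LPS, and Lpl lost it without shielded or unshielded library 2 without LPS. Lyz2 and Ms4a6c were not called with the covariate, nor Lyz2 with the block within shield status. Ms4a7, the MS4A gene of border and marrow-derived macrophages, had 1.89 ± 0.70 (adjusted p = 0.102) and was called without shielded LPS library 3.

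Genes of protein and nucleic acid synthesis, with some of protein breakdown and the nuclear pore, made up a further group, mainly of blunted or lost increases. They were found by ranking gene families, by symbol, on these differences, and 17 families were then written down, so their counts are a description with no test. Of 58 tested ribosome assembly factors, the nucleolar proteins that process ribosomal RNA, 47 were called lower and none higher, against 9.25% of all genes and 17.1% of genes with a mean of at least 3 log2 CPM. LPS raised 56 of the 58 in shielded mice. Among all genes at that mean level, 51.5% of those raised 2- to 4-fold in shielded mice were blunted or lost, and 19% of those raised less. The assembly factors had a median LPS effect of 1.58 in shielded and 0.76 in unshielded mice. Their mean level was 6.54, 6.4 and 6.14 log2 CPM in the shielded LPS libraries, 5.45, 5.58 and 5.38 in the unshielded LPS libraries and 4.74 to 4.85 in the 6 libraries without LPS. The LPS groups did not overlap, and the groups without LPS lay within 0.12 of each other. Without the libraries with conflicting fields 12 of the 58 were called (median difference -0.85), with the covariate 41, and without shielded LPS library 3 55.

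Nop58, a core protein of small nucleolar ribonucleoproteins, showed the pattern. Nop58 stood at 28.7, 28.9 and 26.2 CPM in the shielded libraries without LPS and at 178, 159.6 and 129 CPM with LPS, against 27.98, 25.5 and 25.3 CPM and 54.0, 59.95 and 55.6 CPM in the unshielded libraries. Its effects were 2.47 ± 0.11 in shielded and 1.10 ± 0.11 in unshielded mice (difference -1.37 ± 0.15, edgeR adjusted p = 0.000833). Farsb, a subunit of phenylalanyl-tRNA synthetase, had 1.95 ± 0.09 and 0.60 ± 0.09 (difference -1.35 ± 0.13). Eif2s1, a subunit of the initiation factor that brings the first tRNA (-1.18 ± 0.14), Atic, which catalyses the last steps of purine synthesis (-1.32 ± 0.15), and Mthfd2 of mitochondrial one-carbon metabolism (-1.26 ± 0.17) had differences of like size. For the 5 genes edgeR gave adjusted p-values of at most 0.00166. They were named after their values were seen, and all 5 kept their calls without the libraries with conflicting fields.

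The counts called lower were 26 of 54 translation initiation factors, 20 of 37 aminoacyl-tRNA synthetases, 15 of 28 RNA polymerase subunits, 7 of 9 chaperonin CCT subunits, 12 of 20 subunits of the proteasome's 19S cap and 11 of 15 Integrator subunits. They were 10 of 13 purine synthesis genes, 6 of 10 mitochondrial one-carbon and serine genes, 5 of 9 exosome subunits, 11 of 20 nucleoporins, 6 of 11 SR splicing factors, 9 of 22 mitochondrial import genes and 25 of 77 mitochondrial ribosomal proteins. None of these families had a member called higher. Of all genes raised 2- to 4-fold in shielded mice, at a mean of at least 3 log2 CPM, 51.5% were blunted or lost. Initiation factors (48%), synthetases (54%), exosome subunits (56%) and 19S subunits (60%) lay near that share. Their median LPS effects in shielded mice were 1.10, 1.28, 1.08 and 1.11. Mitochondrial import genes (41%) and ribosomal proteins (32%) had medians of 0.79 and 0.80, and 19% of genes raised less than 2-fold were blunted or lost. By class the calls were 4 blunted and 7 lost among Integrator subunits and 5 blunted and 6 lost among nucleoporins. Among SR splicing factors they were 3 blunted, 2 lost and 1 gained. Families near or below the share of all genes called lower were the cytosolic ribosomal proteins (1 of 81, medians 0.38 and 0.33) and the proteasome's 20S core (2 of 18). The Toll-like receptors were mixed, with 5 of 12 lower and 2 higher. Without the libraries with conflicting fields the counts fell to 4 of 54 initiation factors, 4 of 37 synthetases, 2 of 13 purine genes, 1 of 10 one-carbon and serine genes and 1 of 77 mitochondrial ribosomal proteins, and to 0 in the RNA polymerase, chaperonin, 19S, Integrator, exosome, nucleoporin, SR factor and import families. Without shielded LPS library 3 they were 39 initiation factors (with 1 higher), 48 mitochondrial ribosomal proteins, 10 of 18 20S subunits and 5 of 81 cytosolic ribosomal proteins (with 1 higher).

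**Figure D4:**
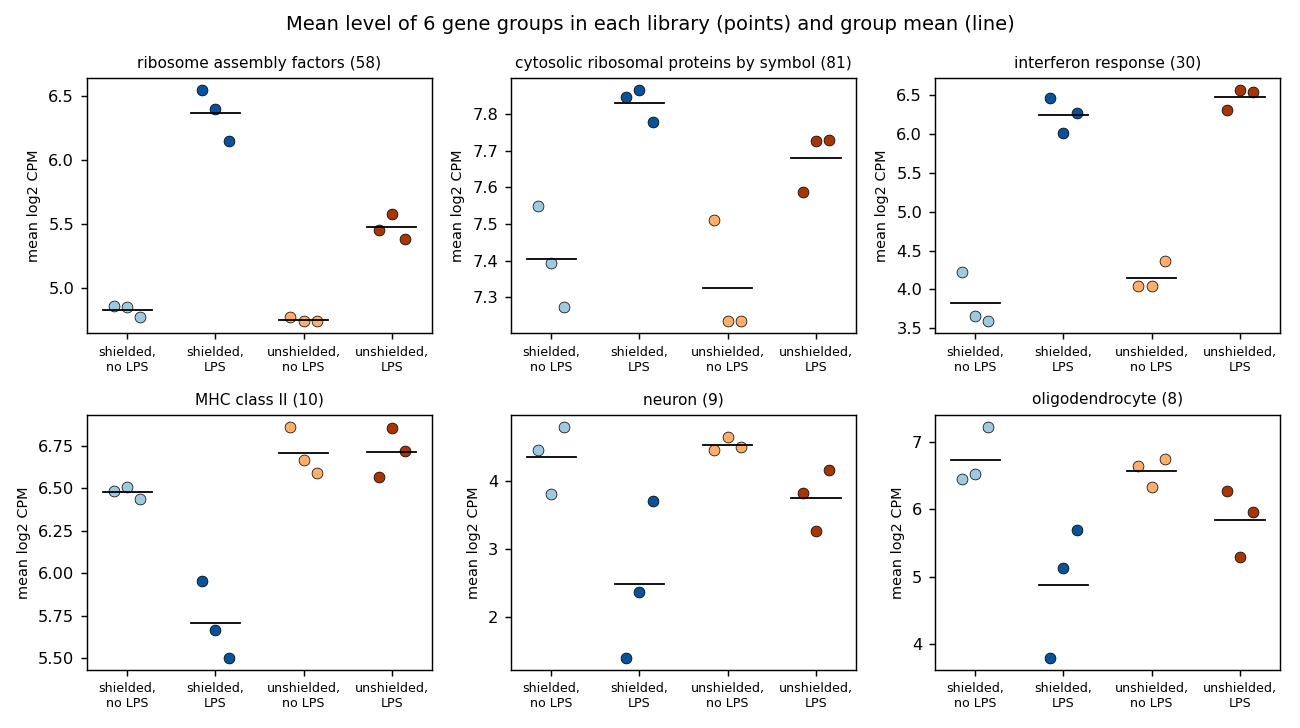
Mean log2 CPM of 6 gene groups in each of the 12 libraries (points), with group means as lines and the number of genes in brackets. Ribosome assembly factors rise further in the shielded LPS libraries than in the unshielded ones, interferon-response genes rise in both, and neuronal and oligodendrocyte genes have their lowest group mean in the shielded LPS libraries.

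The promoters of these genes were searched for short motifs, over 250 bases before to 50 after the start site, on both strands. The sequences are RefSeq's, with the build GRCm38.p6, and 12709 tested genes matched by symbol. The E-box CACGTG, which MYC and related factors bind, was in 15.9% of 761 promoters of raised and blunted genes and in 9 of 45 promoters of ribosome assembly factors. Other families called lower differed: it was in 8 of 43 initiation factor, 5 of 26 synthetase, 4 of 19 mitochondrial import and 3 of 12 purine synthesis promoters, but in 5 of 68 of mitochondrial ribosomal proteins, 1 of 17 of 19S subunits and 0 of 11 Integrator, 0 of 11 SR factor, 0 of 8 chaperonin and 0 of 9 one-carbon promoters. The E-box was in 9.54% of matched tested genes, 11.1% of those with a mean of at least 3 log2 CPM and 7.24% of all 27025 promoters. Among other classes it was in 13.2% of 205 lowered and blunted, 12.4% of 468 raised and lost and 7.21% of 222 lowered and lost genes. For larger increases it was in 5 of 39 promoters and for larger decreases in 3 of 20, so the share was not particular to blunted increases. The core of the interferon-stimulated response element was in 3.02% of the raised and blunted genes against 3.21% of matched tested genes, and the NF-kB motif in 1.58% against 1.49%. In all 7 motifs were searched, the E-box and the cAMP response element (4.20% against 3.04%) after results were known. The cAMP response element was in 5.13% of raised and lost genes. The promoters below, without the transcribed bases, are those of the 3 called ribosome assembly factors with the smallest p that hold an E-box in these 250 bases, shown to let the match be read in place, with the E-box in capitals. Genes on 1 chromosome were left out of this choice. Utp18 lies at chr11:93885767-93886016, minus strand, Nol11 at chr11:107189382-107189631, minus strand and Imp4 at chr1:34439579-34439828, plus strand.
Utp18: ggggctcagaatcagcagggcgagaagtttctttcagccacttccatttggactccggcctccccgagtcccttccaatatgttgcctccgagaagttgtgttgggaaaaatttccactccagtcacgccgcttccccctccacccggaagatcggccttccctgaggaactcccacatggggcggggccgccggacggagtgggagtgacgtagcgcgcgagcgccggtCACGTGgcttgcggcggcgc
Nol11: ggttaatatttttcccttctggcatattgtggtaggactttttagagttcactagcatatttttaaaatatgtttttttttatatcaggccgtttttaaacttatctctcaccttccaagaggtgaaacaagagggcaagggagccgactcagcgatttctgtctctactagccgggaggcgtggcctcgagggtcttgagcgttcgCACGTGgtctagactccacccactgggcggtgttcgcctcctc
Imp4: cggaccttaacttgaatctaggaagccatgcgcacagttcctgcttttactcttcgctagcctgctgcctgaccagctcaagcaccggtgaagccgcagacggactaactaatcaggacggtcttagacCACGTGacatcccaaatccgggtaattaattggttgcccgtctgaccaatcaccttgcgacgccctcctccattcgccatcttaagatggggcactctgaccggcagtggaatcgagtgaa
Each holds 1 match in the 250 bases. The differences of Utp18, Nol11 and Imp4 were -1.02 ± 0.14, -0.83 ± 0.14 and -0.66 ± 0.14 (edgeR adjusted p = 0.00195, 0.00307 and 0.0116). A match is a description of the letters and not of binding.

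Counts of metabolic and stress genes called lower stand against 9.25% of all genes and 17.1% of genes with a mean of at least 3 log2 CPM. Of 19 genes of the unfolded protein and integrated stress response 6 were called lower and none higher, led by Asns, which makes asparagine (-1.39 ± 0.28, edgeR adjusted p = 0.00887), with medians of 0.79 and 0.34. That count was 2 with the covariate, 13 without shielded LPS library 3 and 0 without the libraries with conflicting fields. Of 16 glycolysis genes 4 were lower and 1, the hexokinase gene Hk1, was higher (0.73 ± 0.11): Hk1 fell in shielded mice (-0.88 ± 0.08) and had -0.15 ± 0.08 in unshielded mice. Of 18 p53 targets tested 5 were lower and 2 higher, and of 18 cholesterol synthesis genes 4 were lower. The members with the smallest p were the p53 target Aen (-0.92 ± 0.20), the sterol synthesis gene Cyp51 (-0.56 ± 0.13), the proteasome gene Psmd12 (-0.70 ± 0.14), Cmas of sialic acid synthesis (-0.68 ± 0.14), the peptide trimmer Erap1 of the MHC class I list (-0.61 ± 0.15), the astrocyte transporter gene Slc1a3 (-1.21 ± 0.18) and Tgfb3 (1.68 ± 0.40). Slc1a3, a reversed response, was the 1 gene called of 9 astrocyte genes, whose median difference had the opposite sign (0.49). Ldha (-0.62 ± 0.15), the proliferation genes Mki67 (1.07 ± 0.30) and Pcna (-0.78 ± 0.13) and the interferon-induced GTPase gene Tgtp1 (-1.41 ± 0.43) were called too, where leaving out 1 library ended the call of Mki67 in 8 fits, Tgtp1 in 10 and Ldha in 2. Without shielded LPS library 3 glycolysis had 8 lower and 2 higher, p53 targets 7 lower and 2 higher and oxidative phosphorylation 3 lower, and without the libraries with conflicting fields none of the stress, glycolysis, p53 and cholesterol synthesis lists had a call. None of 24 nuclear genes of oxidative phosphorylation was called, and their medians were 0.46 and 0.42. None of 18 lysosome genes, 16 immediate-early and dissociation genes or 14 purine signalling genes was called.

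**Figure D5:**
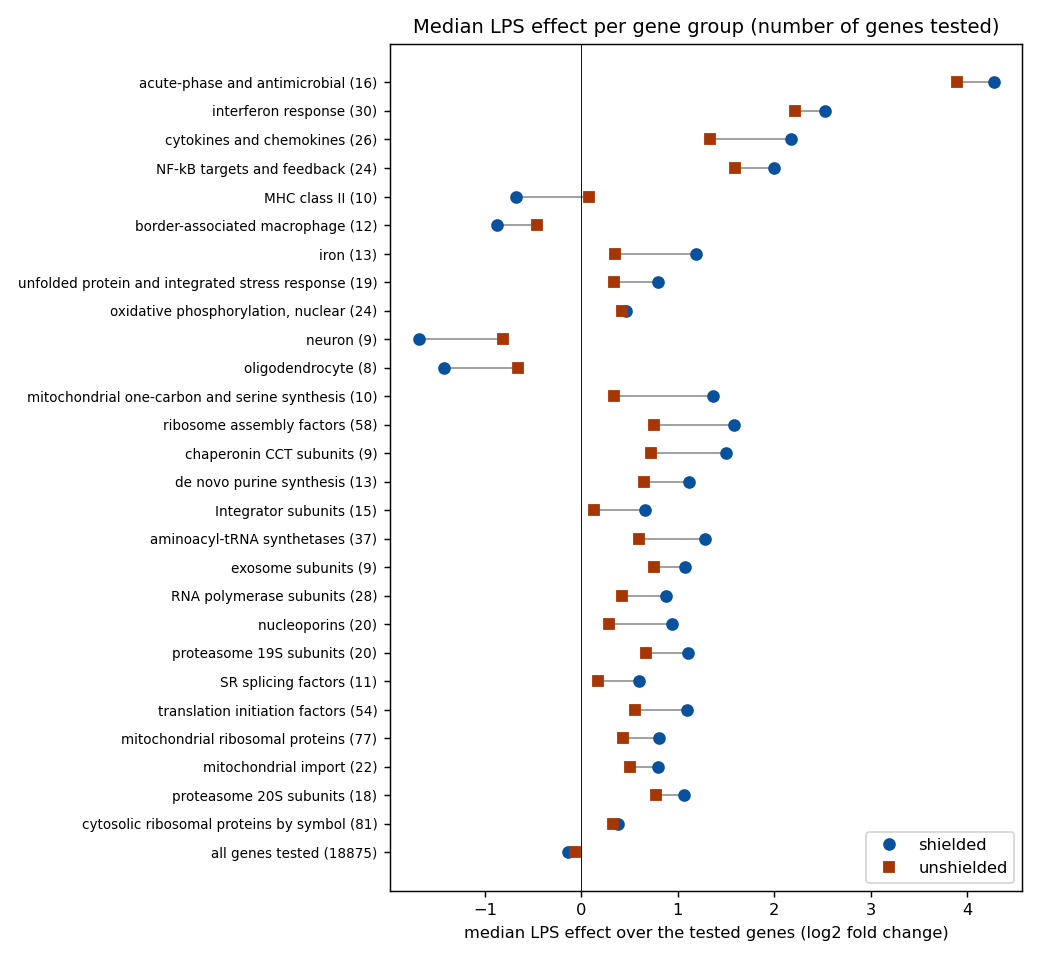
Median LPS effect (log2 fold change) over the tested genes of 11 gene lists, 16 gene families chosen after values were seen and all genes, in shielded mice (circles) and unshielded mice (squares), with the number of genes in brackets. Ribosome assembly factors stand at 1.58 and 0.76, interferon-response genes at 2.53 and 2.22 and MHC class II genes at -0.68 and 0.07.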

How the data were processed

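RNA was measured in 12 libraries of sorted brain cells, 3 in each of 4 groups. The authors deposited 1 table of raw read counts per gene for 36491 genes. The submitters' processing notes name FastQC, STAR, HTSeq and the build mm9, without versions. RNA was amplified linearly before sequencing, per the labels' protocols, which can change the ratio between transcripts. Groups come from library titles.

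The model was edgeR's (version 4.0.16, R 4.3.3; quasi-likelihood, robust dispersion, TMM scaling), with genes kept by filterByExpr (minimum count 10, minimum total 15) and 8 residual degrees of freedom. One model over all 12 libraries gave both LPS effects and their difference. P-values were Benjamini-Hochberg adjusted over 18875 genes, and the threshold was 0.05. Values after ± are standard errors of the fit. CPM are counts scaled to the TMM library size, and mean log2 CPM use a prior count of 2. Alternatives were DESeq2 1.42.0, limma-voom (limma 3.58.1), other scalings and filters, a marker covariate, replicate blocks, and each library left out. Simulated counts had 200 of 18875 genes changed, all with a mean of at least 3 log2 CPM. There 2-fold differences were found in 69% of cases and 4-fold ones in 92%, with 9 false calls. Each count was drawn on its own, so shifts shared by many genes of a library were not simulated. Replicates of a group always differed by more than sampling noise (chi-square per degree of freedom at least 12.48).

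The comparison, its 38 gene lists and its named genes were chosen with earlier results of these data known. Genes are named by 3 rules: in each class and direction, the 4 largest differences among called genes with a mean of at least 3 log2 CPM; per list and direction, the called member of smallest p; and 24 genes listed by name. The first rule left out predicted and unnamed genes and pseudogenes, so genes said to lead a class do so among the rest. Outside these rules, Tnfaip2, Cxcl13, Tlr2, Ticam2, H2-Aa, H2-Ab1, Pf4, Lyz2, Axl, Ms4a6c, Lpl, Clec10a, Pltp, Steap3, Slc39a14, Ncoa4, Nop58, Farsb, Eif2s1, Atic, Mthfd2, Mertk, Pgk1 and Smad6, and the 3 genes with printed promoters, were named after their values were seen. Of 57 genes listed in that way, those not named in the text enter only the counts of calls kept, and 1 further gene is not reported here. Same-numbered libraries within shielded mice correlated at 0.112, 0.194 and 0.547 in their deviations from group means, and within unshielded mice at -0.115, -0.094 and 0.02. Different-numbered ones ran from -0.483 to 0.399 and from -0.054 to 0.131. Unshielded LPS library 3 correlated with shielded library 3 at 0.478 with LPS and 0.407 without. Unshielded LPS library 2 and shielded LPS library 1 reached 0.558. The numbers were not taken to pair libraries, but pairing within shielded mice is not excluded, and fits with replicate blocks are given below.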

Additional observations from a re-analysis of the deposited data

Results flagged for a closer look

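The difference of LPS effects between unshielded and shielded mice was tested directly and passed at 2512 genes, with the dependence on single libraries given above. The genes below, named by class, passed the same edgeR test, and the value after each is its difference on the log2 scale. Blunted increases were led by Ch25h (-2.83), Fn1 (-2.13), Ikbke (-2.18) and Il12b (-3.51), and blunted decreases by Cbfa2t3 (1.98), Sgsh (1.89), Slco1a4 (2.06) and Tppp (1.90). Lost increases were led by Gpr65 (-2.46), Rab32 (-1.74), Tfrc (-2.54) and Tlr1 (-1.64), and lost decreases by Apoe (2.45), Scd2 (1.81), St6gal1 (2.42) and Stard13 (2.15). Reversed responses were C3ar1 (-1.93), Fgf2 (-1.67), Slc16a10 (-1.30) and Slc39a10 (-1.33), which rose with the shield, and Arap2 (1.64), Mrc1 (1.90), Serinc5 (1.95) and Snx21 (1.68), which fell with it. Gained increases were Cd163 (2.46), Pde7b (2.64), Rap1gap2 (2.01) and Runx3 (2.30), and gained decreases Bhlhe41 (-1.21), Galnt3 (-1.29), Gpr183 (-1.32) and Nuak1 (-1.28). Larger increases were Clec4n (1.57), Emb (1.31), Tgfbi (1.64) and Trp53inp1 (1.70), and larger decreases Clec7a (-1.42), Cx3cr1 (-1.20), Kitl (-1.26) and Tle1 (-1.65). The genes Supt4a (0.37), Bicd2 (-0.59), Tex2 (-0.48), Wwtr1 (-0.96) and Zfp397 (-0.55) were called with neither LPS effect called, at adjusted p of 0.0443 to 0.0498. Of these 45 genes 38 kept their call whichever library was left out, and the other 7 (these last 5, Scd2 and Tppp) lost it in 8 or more of 12 fits. Without the libraries with conflicting fields 22 of the 45 kept their call, and with the neuronal and oligodendrocyte covariate 9 lost it.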

How the results depend on the processing

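The 2512 genes were picked for their differences in the same libraries, so a kept sign is a description and not a test. Every one of the 2512 called differences kept its sign in each alternative in which it was tested, apart from grouping 2 libraries by their treatment field, where 2314 did. Under that grouping all counts were 0: called, higher, lower, blunted, lost, reversed, larger and gained. Without those 2 libraries they were 148 called, 83 higher, 65 lower, 70 blunted, 37 lost, 17 reversed, 5 larger and 19 gained (3433 genes at an unadjusted p under 0.05). With no low-count filter 1571 were called, 821 lower, 685 blunted and 46 reversed. Scaling by library totals moved the median difference to 0.13 and gave 386 gained, 135 larger and 188 reversed of 2951 called, and a minimum count of 50 gave 117 larger of 3032. With the marker covariate 1135 were lower, 589 lost and 34 reversed. DESeq2 called 3058, limma-voom 2538, thinning to the smallest total 2450 and non-robust dispersion 2451. A replicate block across the groups gave 2891 calls and a block within shield status 2385.

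Leaving out 1 library gave 1615 to 6391 called, 413 to 2951 higher, 1142 to 3440 lower, 709 to 3112 blunted, 545 to 2613 lost, 48 to 158 reversed, 35 to 92 larger and 121 to 385 gained. Of 67 called genes named by rule, 55 kept the call whichever library was left out, 12 lost it at least once, 24 kept it without the 2 conflicting libraries and 10 lost it with the covariate. Of the 57 genes listed after values were seen, 27 kept the call whichever library was left out, 17 kept it without the conflicting libraries and 21 lost it with the covariate. Grouping by the treatment field reversed the sign of Cbfa2t3 -1.168, Clec12a -0.3628, Gbp2 0.042, Gpr34 -1.382, Isg15 0.8312, P2ry12 -0.5435, Slco1a4 -1.721, Tppp -0.9112, Ms4a6c 0.0882, Clec10a -0.8278, Pltp -0.1168, Pgk1 0.0139 and Smad6 -0.1104. The sign also reversed for Clec12a -0.1774, Csf1r 0.1232, Lcn2 -0.1917, Nos2 0.1513 and Sall1 0.0305 with the covariate, for Lcn2 -0.01464 with DESeq2, for Lcn2 -0.006523 with library totals, for Csf1r 0.00871 with no filter and for Isg15 0.1922 without the conflicting libraries. With 1 library left out the differences ranged from -0.06872 to 1.165 for Clec12a, from -0.1603 to 0.5135 for Il6, from -0.5372 to 1.568 for Lcn2 and from -0.664 to 0.2626 for Sall1, each of which changed sign in at least 1 such fit. The cause of these changes was not tested. With 3 libraries a group, smaller differences are below what the test can call.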
